A study of Mus musculus with 9 samples.

Results

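The potassium channel subunits of the embryonic cochlear duct were taken as the protein-coding mouse genes whose symbol starts with Kcn, and 66 of 94 such genes held 10 or more counts in at least 3 of 9 libraries. These 66 members, out of 54232 genes counted in all, were described by subfamily across 3 genotypes. Each library held RNA from the cochlear ducts of both inner ears of a single E14.5 mouse embryo on an FVB/NJ background. WT embryos, embryos heterozygous for the Prdm16 cGT gene trap and embryos carrying the trap on both alleles (null) came from matings of heterozygotes, with 3 embryos per genotype described as littermates. The trap removes PRDM16 from every tissue of the embryo and not from the duct alone, and the ducts were dissected by hand, so a library holds all the cell types that came with them. The comparisons ask whether RNA for potassium channels differed between genotypes in a duct that lacks PRDM16, a transcriptional regulator of Kölliker's organ. Values are CPM (the reads on a gene scaled to a common library size by TMM normalisation), and levels of different genes are compared only as CPM per kb of annotated exon.

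Potassium channels let potassium ions cross the cell membrane and set the resting and repolarising currents of a cell. In the mature cochlea the fluid of the duct, endolymph, is rich in potassium that the stria vascularis secretes through channels of KCNQ1 and KCNE1, while KCNJ10 is needed for the voltage of that fluid. Hair cells pass the potassium on through channels that include the large-conductance channel of KCNMA1. At E14.5 the duct is still an immature epithelium in which most of these specialised cells have yet to form.

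Total counts ranged from 24095322 to 30819118 per library, and a count of 3, taken as the floor, stood for 0.0969 to 0.126 CPM, which covers counting error only. Prdm16 was at 184 to 225 CPM in WT, 123 to 151 in heterozygous and 19.1 to 27.4 in null libraries, so the targeted gene followed the labels. Epithelial markers of the duct (10 genes) summed to 12530 to 13770 CPM in WT, 14010 to 15020 in heterozygous and 13900 to 18270 in null libraries, an order set by Oc90, which encodes an otoconial protein. Without it the other 9 summed to 5279 to 5672, 5136 to 5833 and 3854 to 4893 CPM, so that null lay below WT. That order was set by Tecta, a tectorial membrane gene, at 2602 to 3232 CPM in WT and 1393 to 1642 in null libraries. Of the 9 genes Tecta alone was lower in each null than in each WT library, and Sox2, Fgf20, Lmx1a and Otx2 were higher. Melanocyte markers (6 genes) were at 62.3 to 144 CPM in WT, 28.3 to 48.6 in heterozygous and 19.1 to 51.3 in null libraries. Red blood cell markers (7 genes) were at 86.1 to 239.6 CPM in WT, 36.7 to 57.7 in heterozygous and 58.4 to 122 in null libraries, and Schwann and glial markers (7 genes) at 1481 to 1579, 1627 to 1701 and 1414 to 1612, so that WT and heterozygous libraries did not overlap in either. Without Sox10, however, the other 6 glial markers overlapped, at 732.4 to 796.5 CPM in WT and 766.5 to 806.7 in heterozygous libraries. Skeletal muscle markers (6 genes), at 3.02 to 3.53 CPM in WT and 4.32 to 5.24 in null libraries, did not overlap between those genotypes. This gap came from Tnnt1, since the other 5 overlapped at 0.863 to 0.984 CPM in WT and 0.678 to 1.69 in null libraries. Only 1 of the 6 exceeded the floor in every library. The part of these markers in the results for members was not tested. Markers of periotic mesenchyme (9 genes) summed to 460, 891 and 1614 CPM in WT1, WT2 and null3 and to 41.2 to 113 CPM in the other 6 libraries, and 8 of the 9 were higher in each of those 3 libraries than in all the others. Endothelial markers summed to 94.2, 77.6 and 54.7 CPM in the same libraries and to 4.62 to 9.25 CPM elsewhere. In bulk RNA of this kind, fewer cells of a type and less RNA per cell cannot be told apart.

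The duct at E14.5 held RNA for a broad set of subunits at low to moderate levels. Over the 9 libraries 6 members exceeded a mean of 5 CPM per kb, 27 exceeded 1 and 10 lay below 0.1, with a median of 0.596. Kcnk1, which encodes the weakly conducting tandem-pore channel TWIK1, stood first at 21.9 CPM per kb, and Kcnj16 at 8.20, Kcnh6 at 7.58, Kcnj11 at 5.12 and Kcnq3 at 5.04 were among the other members over 5. The 5 highest members held 46.2% of the summed level and the 10 highest 61.6%. Kcnk1 alone made the Kcnk family the largest by level in WT, with 26.6% of the summed level of the members. Channels that the adult cochlea is known for were not among the highest. Kcnj10 reached 2.42 CPM per kb, while Kcne1 reached 0.793, Kcnq1 0.403, Kcnn2 0.348 and Kcnma1 0.0915.

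The summed level of all members was 98.8, 98.3 and 106 CPM per kb in WT, 107, 102 and 106 in heterozygous and 116, 115 and 115 in null libraries. All 3 null libraries lay above the other 6, which overlapped with each other. By subfamily, the Kcnq and Kcne genes were at 11.3 to 11.9 in WT, 11.9 to 12.8 in heterozygous and 13.3 to 14.7 in null ducts, and the Kcnj genes at 15.8 to 17.8, 20.4 to 21.6 and 20.1 to 24.4. Single genes made up most of these gaps, since Kcnq3 was at a mean of 3.93 CPM per kb in WT and 6.12 in null ducts and Kcnj16 at 5.86 and 9.52, and of the 8 Kcnq and Kcne genes 4 had positive and 4 negative log2 fold changes in null against WT ducts. Null also lay above WT for the Kcna to Kcnd genes (16.0 to 17.0 in WT, 15.4 to 17.9 in heterozygous and 17.5 to 20.4 in null ducts) and for the Kcnf, Kcng, Kcns and Kcnv genes (1.93 to 1.97, 1.64 to 2.16 and 2.30 to 4.71), where Kcns1 went from a mean of 0.514 to 2.20. The other 5 subfamilies, among them the Kcnh genes (13.3 to 17.9, 12.0 to 17.1 and 14.3 to 15.2), overlapped between WT and null ducts.

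**Figure D1:**
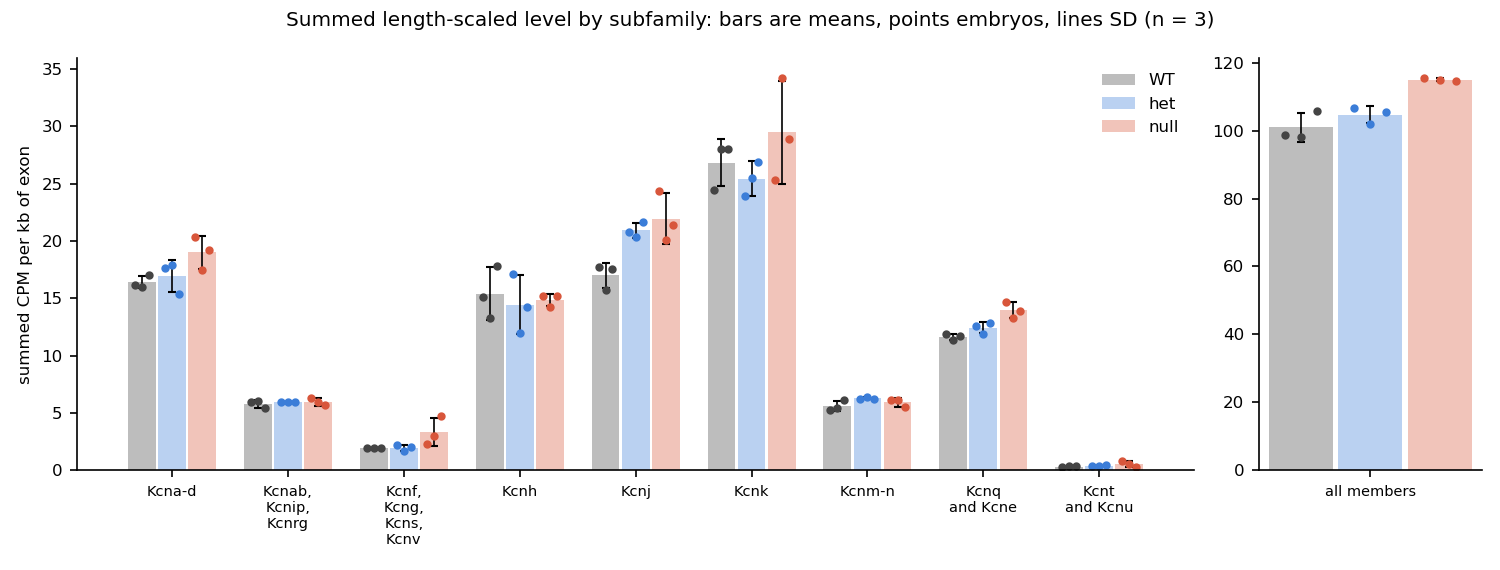
Summed level of the members of each subfamily (left) and of all 66 members (right) in CPM per kb of exon, on linear axes from 0. Bars are genotype means, points the 3 embryos and lines the SD. Kcnk holds the highest sum in each genotype, and the summed level of all members is 115 to 116 CPM per kb in the null embryos against 98.3 to 106 in WT.

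Between null and WT ducts, 61 members passed the filter on low counts and were tested with edgeR's quasi-likelihood test among 17168 genes. A call required a Benjamini-Hochberg adjusted p under 0.05 together with a log2 fold change beyond 0.5 in either direction. Kcns1 was called higher and no member lower, where 0.92% of all genes were called higher and 0.786% lower. At an unadjusted p under 0.05 the members numbered 16 (26.2%, against 12.2% of all genes), 13 of them higher (21.3%, against 6.48%) and 3 lower (4.92%, against 5.76%) in null ducts. DESeq2 called 5 members, Kcns1, Kcnj16, Kcnq3, Kcnc4 and Kcnk2, all higher, against a background of 3.55%. Limma-voom called no member, and the share of all genes it called was not computed. The 3 null values lay above the 3 WT values in 15 members (24.6%), against 10.1% of all genes, and below them in 5 (8.20%), against 8.95%. The log2 fold changes ran from -1.49 to 2.09 with a median of 0.18, against 0.01 over all genes, and 37 were positive and 24 negative. Kcnd2 passed the rule for members through its 3 null libraries alone, so its place among these counts follows from its difference.

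Between heterozygous and WT ducts 63 members were tested among 17269 genes. Kcnj16 was called higher, and 0.0521% of all genes were called higher and 0.0984% lower. No member was called lower by edgeR, whereas DESeq2 called Kcnd3 lower beside Kcnj16 higher, with 1.73% of all genes called in either direction. At an unadjusted p under 0.05 there were 8 members (12.7%, against 13.1%), 4 in each direction (6.35%, against 5.80% higher and 7.33% lower). The values did not overlap in 5 members that were higher (7.94%, against 8.97%) and in 2 that were lower (3.17%, against 8.99%). The median log2 fold change was 0.07.

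Between null and heterozygous ducts edgeR called none of 60 members tested among 17067 genes, of which 0.293% were called higher and 0.322% lower. DESeq2 called Kcns1 and Kcnd3 higher and Kcnn4 lower, against 2.11% of all genes. Limma-voom again called no member, without a share of all genes to set beside it. At an unadjusted p under 0.05 there were 14 members (23.3%, against 11.4%), 9 higher (15.0%, against 6.14%) and 5 lower (8.33%, against 5.25%). The null values lay above the heterozygous values in 15 members (25.0%, against 9.06%) and below them in 5 (8.33%, against 9.09%). Kcnd2 is among those higher in both counts, and its place there too follows from the rule for members. The 3 comparisons share libraries, so that null embryos enter this one and the one against WT.

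**Figure D2:**
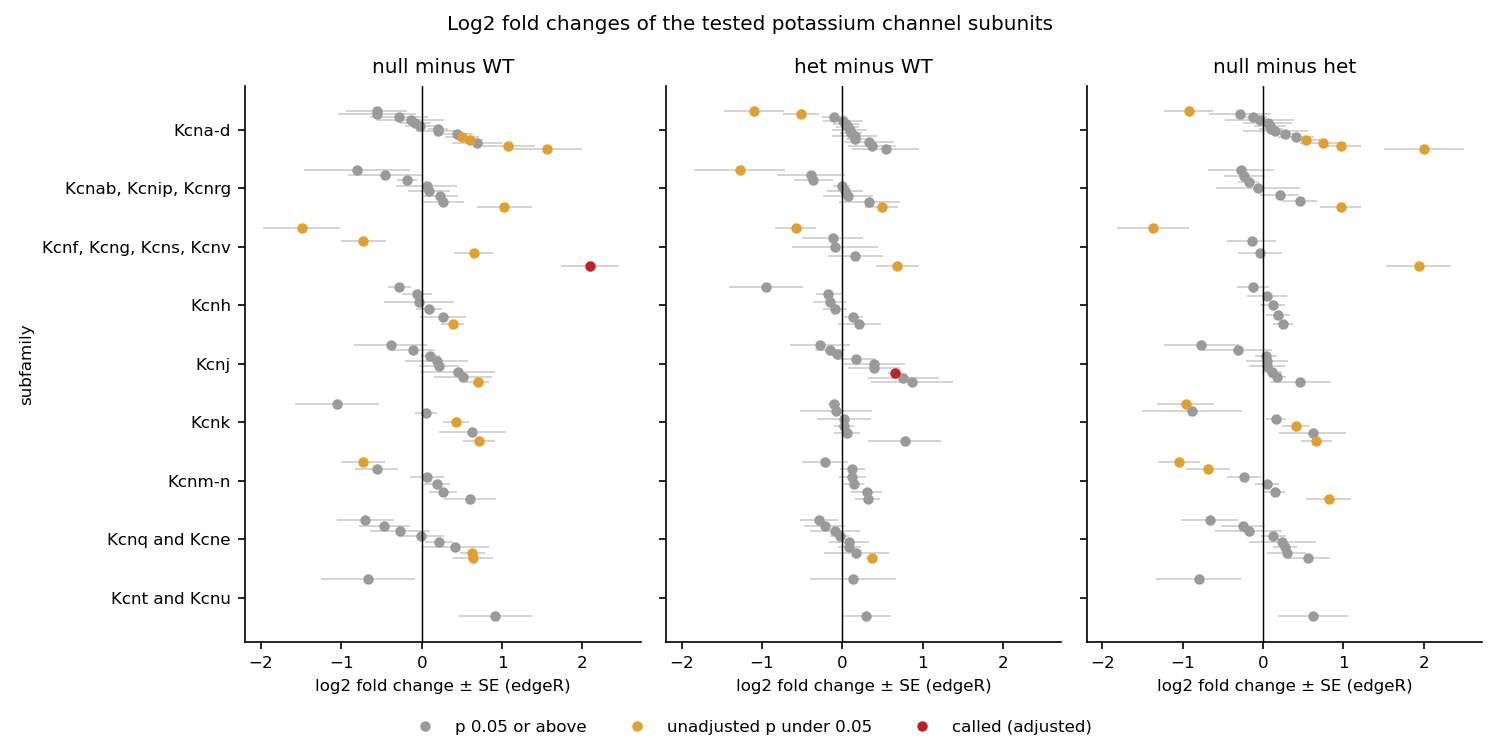
Log2 fold change (x axis) of each tested member by subfamily (y axis) in the 3 comparisons, with lines for the standard error of edgeR. Red marks a call (Kcns1 at 2.09 in null minus WT, Kcnj16 at 0.66 in het minus WT), orange an unadjusted p under 0.05 and grey the rest, and most members lie within 1 of 0.

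Kcns1 encodes Kv9.1, a silent subunit that forms no channel on its own but joins other voltage-gated subunits and alters their gating. The gene (ENSMUSG00000040164) lies on the minus strand at chr2:164163619-164171113 (mm10). Its level was 1.56, 1.61 and 1.02 CPM in WT, 2.33, 1.30 and 1.06 CPM in heterozygous and 3.72, 5.30 and 8.93 CPM in null ducts. Each null duct exceeded all 6 others, and the highest of them was null3. The log2 fold change from WT to null was 2.09 ± 0.37 (SE, n = 3 per genotype, edgeR adjusted p = 0.0359), and the same fit gave adjusted p-values of 0.0299 to 0.154 with each embryo left out in turn. The call was lost without WT1 (0.151), WT2 (0.154), WT3 (0.130) or null2 (0.0817), and also with the replicate block (0.142) and with limma-voom. With an embryo left out the log2 fold change stayed between 1.69 (without null3, adjusted p = 0.0299) and 2.34. Null against heterozygous ducts differed by 1.94 ± 0.41 (edgeR adjusted p = 0.107), and DESeq2 gave 1.0e-04 there, in a range of 1.0e-04 to 0.437 over the alternatives. Heterozygous and WT ducts were 0.16 ± 0.34 apart and overlapped. In the 6 libraries low in mesenchyme markers the difference between null and WT was 2.15 (adjusted p = 0.103), with WT3 as the sole WT embryo.

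The 250 bases upstream of the start of Kcns1 (RefSeq, GRCm38.p6, minus strand, chr2:164171114-164171363) are shown beside those upstream of the most 5′ of 4 RefSeq starts of Kcnj16 (plus strand, chr11:110967783-110968032), since these are the members called by edgeR. Both run 5′ to 3′ toward the start, with a GC box (GGGCGG on either strand) in capitals.
Kcns1: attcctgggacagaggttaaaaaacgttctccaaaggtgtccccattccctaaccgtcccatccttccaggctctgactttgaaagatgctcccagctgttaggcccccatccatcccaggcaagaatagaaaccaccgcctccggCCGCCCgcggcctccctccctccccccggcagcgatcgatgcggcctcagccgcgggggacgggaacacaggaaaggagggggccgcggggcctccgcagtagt
Kcnj16: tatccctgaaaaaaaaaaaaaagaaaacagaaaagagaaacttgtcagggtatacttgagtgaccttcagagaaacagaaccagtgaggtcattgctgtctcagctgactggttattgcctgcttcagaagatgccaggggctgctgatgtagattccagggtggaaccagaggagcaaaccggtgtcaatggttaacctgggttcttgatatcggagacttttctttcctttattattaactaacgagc
The Kcns1 stretch holds 17 CG dinucleotides, a G and C content of 63.2% and 1 GC box, whereas that of Kcnj16 holds 3 CG dinucleotides, 42.8% G and C and no GC box. Neither holds TATAAA or CCAAT on either strand. Over 32851 RefSeq promoter windows of this length 32.7% hold GGGCGG, 12.4% TATAAA and 33.8% CCAAT. Among 70 windows of 46 members the shares were 48.6%, 4.29% and 31.4%, with a median of 8 CG dinucleotides against 6 over all windows. Such matches describe the letters of the window and do not mark a bound site.

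None of the remaining silent subunits was called. Kcng3, another silent subunit, was at 0.889, 0.588 and 1.32 CPM in WT, 0.964, 1.05 and 0.585 CPM in heterozygous and 0.206, 0.291 and 0.503 CPM in null ducts. The null values lay below the other 6, at a log2 fold change of -1.49 ± 0.48 from WT (edgeR adjusted p = 0.240). Kcns3 was at 1.74 to 2.34 CPM in WT, 1.19 to 1.76 in heterozygous and 1.07 to 1.63 in null ducts, at -0.73 ± 0.28 in null ducts (adjusted p = 0.343). Kcnf1, a Kv5 subunit, was at 1.37 to 1.89, 1.98 to 3.55 and 2.15 to 2.93 CPM. Both mutant genotypes lay above WT without overlap (0.68 in heterozygous ducts, edgeR adjusted p = 0.305, and 0.65 in null ducts, adjusted p = 0.331). Kcng1 and Kcnv2 stayed under 1 CPM in every library and were filtered from the test of null against WT.

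**Figure D3:**
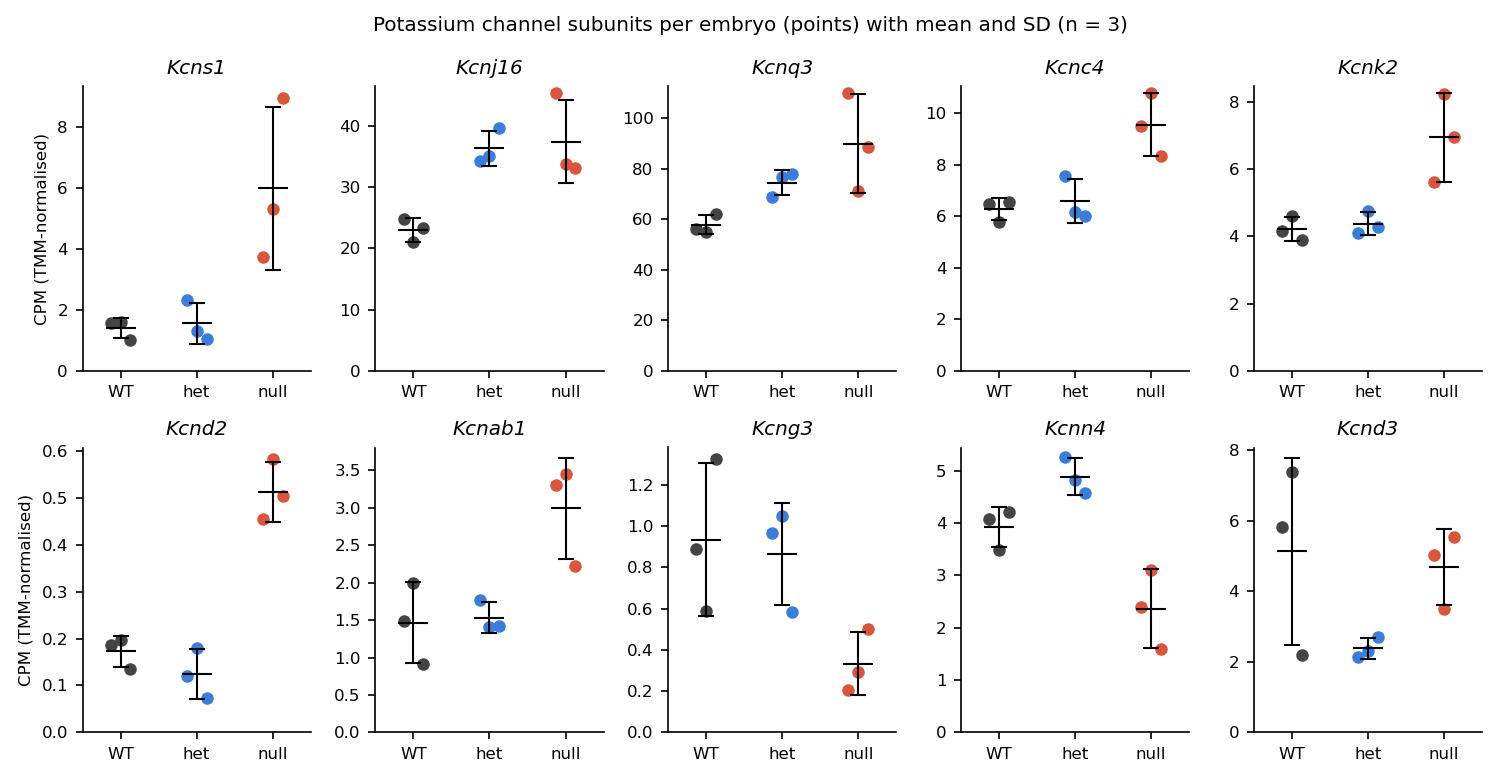
CPM (TMM-normalised, linear axes from 0) of 10 members in each embryo, with points for the 3 embryos of a genotype and lines for the mean and SD. Kcns1 reaches 3.72 to 8.93 CPM in null against 1.02 to 1.61 in WT embryos, Kcnj16 is higher in both mutant genotypes, and Kcnd3 spreads from 2.21 to 7.38 CPM within WT.

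Of the 14 voltage-gated pore subunits (Kcna to Kcnd), 8 had positive and 6 negative log2 fold changes in null against WT ducts, and none was called by edgeR. Kcnb2, a delayed rectifier, was at 4.31 to 4.45 CPM in WT and at 3.65 to 4.78 CPM in null ducts, and its values overlapped. Kcnc4, a Kv3 subunit of fast-inactivating currents, was at 6.48, 5.77 and 6.55 CPM in WT, 7.55, 6.17 and 5.998 CPM in heterozygous and 9.50, 10.8 and 8.34 CPM in null ducts. All null values were higher than the other 6, by 0.60 ± 0.16 against WT (edgeR adjusted p = 0.156), and DESeq2 gave 0.0418 in a range of 0.0418 to 0.522. Kcnc2, which supports fast firing in neurons, was at 1.00, 0.667 and 1.25 CPM in WT, 1.00, 1.37 and 1.32 CPM in heterozygous and 2.52, 1.58 and 2.14 CPM in null ducts. Its null values again lay above all others (1.08 ± 0.33, adjusted p = 0.211).

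None of the Kv4 genes of the transient A-type current was called by edgeR. Kcnd2 held 5, 5 and 4 counts in WT, 3, 5 and 2 counts in heterozygous and 11, 18 and 12 counts in null libraries. The null counts were the higher ones in each case (log2 fold change 1.56 ± 0.44, edgeR adjusted p = 0.171), at a depth where few reads carry the difference. Kcnd1 was at 5.22 to 7.36 CPM in WT and 5.45 to 6.68 CPM in null ducts. Kcnd3 was at 5.82, 7.38 and 2.21 CPM in WT, 2.13, 2.31 and 2.71 CPM in heterozygous and 5.04, 3.49 and 5.53 CPM in null ducts, and the high WT values came from the WT libraries rich in mesenchyme markers. Null exceeded heterozygous ducts without overlap (0.97 ± 0.24, adjusted p = 0.175). Kcna5, a Kv1 delayed rectifier, was at 2.39 to 3.26 CPM in WT and 3.71 to 4.38 CPM in null ducts (0.51 ± 0.21, adjusted p = 0.391). The Kv1 genes Kcna1, Kcna2, Kcna3 and Kcna4 stayed between 0.402 and 5.59 CPM in every library. Of these, Kcna4 was at 0.471 to 0.630 CPM in WT and 0.784 to 0.969 CPM in null ducts, and Kcna3, a channel known from lymphocytes, was lower in null (0.711 to 1.22 CPM) than in heterozygous ducts (1.57 to 1.91 CPM) without overlap (-0.92 ± 0.30, adjusted p = 0.317).

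None of the 8 cytosolic partners was called. Kcnab1, a beta subunit that speeds inactivation of Kv1 channels, was at 1.48, 2.00 and 0.916 CPM in WT, 1.77, 1.41 and 1.43 CPM in heterozygous and 3.30, 3.46 and 2.22 CPM in null ducts. Its null values lay above the other 6 (1.03 ± 0.34 against WT, edgeR adjusted p = 0.251). Kcnab2, the beta subunit with the highest level, was at 12.8 to 14.7 CPM in WT and 11.5 to 12.7 CPM in null ducts, just below WT. Kcnip3 and Kcnip4, calcium-binding partners of Kv4 channels, overlapped between WT and null ducts, at 2.48 to 3.33 against 3.07 to 4.07 CPM and at 2.55 to 3.71 against 2.68 to 4.39 CPM. Kcnab3, Kcnip1, Kcnip2 and Kcnrg were at 0.0646 to 3.02 CPM. Kcnip1 was at 0.370 to 0.577 CPM in WT and 0.0721 to 0.329 CPM in heterozygous ducts (-1.28 ± 0.56, adjusted p = 0.373), on 2 to 17 counts per library.

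No Kcnh gene of the EAG, ERG or ELK channels was called in any comparison by edgeR. Kcnh6 was at 31.8, 23.3 and 33.7 CPM in WT, 34.98, 19.2 and 25.7 CPM in heterozygous and 24.8, 23.7 and 24.8 CPM in null ducts. The 3 groups overlapped. Kcnh2, the ERG channel of cardiac repolarisation, was at 10.6 to 14.7, 9.99 to 12.9 and 12.1 to 14.4 CPM. Kcnh8 was at 9.74, 9.41 and 11.7 CPM in WT and 14.1, 13.8 and 12.5 CPM in null ducts, higher by 0.38 ± 0.14 (edgeR adjusted p = 0.315) and below the fold threshold. Kcnh5 and Kcnh7 ran from 4.41 to 8.63 CPM over all libraries, and Kcnh1 and Kcnh3 from 0.0721 to 1.01 CPM.

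Among the 9 inward rectifiers Kcnj16 was the one called. It encodes Kir5.1, which yields functional channels in most cells only together with KCNJ10 or its relatives. The gene (ENSMUSG00000051497, chr11:110968033-111027968, plus strand) was at 24.8, 21.0 and 23.3 CPM in WT, 34.3, 35.2 and 39.6 CPM in heterozygous and 45.3, 33.8 and 33.2 CPM in null ducts. All 6 mutant libraries exceeded the 3 WT libraries, and heterozygous and null values overlapped. The log2 fold change from WT was 0.66 ± 0.09 in heterozygous (edgeR adjusted p = 0.0363) and 0.70 ± 0.14 in null ducts (adjusted p = 0.0657), and null against heterozygous ducts gave 0.04 ± 0.14 (adjusted p = 0.922). The heterozygous call was lost without WT2 (0.120), het1 (0.0584), het2 (0.136) or het3 (0.200), with all 9 libraries in a single fit (0.352) and in the 6 libraries low in mesenchyme markers (0.729, log2 fold change 0.64). In null against WT ducts DESeq2 called it (adjusted p = 6.3e-04, range 6.3e-04 to 0.305).

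Kcnj10, the usual partner of Kcnj16, was at 10.1, 13.5 and 18.0 CPM in WT, 13.7, 12.2 and 11.5 CPM in heterozygous and 15.6, 8.65 and 14.6 CPM in null ducts, and the groups overlapped (-0.11 ± 0.28 in null ducts, edgeR adjusted p = 0.907). Whether the changes of the pair differ was not tested. Kcnj11, the pore of ATP-sensitive channels, was at 17.3 to 20.8 CPM in WT and 19.0 to 21.1 CPM in null ducts. Kcnj2, the classical strong inward rectifier, was at 17.5, 8.47 and 5.70 CPM in WT, 13.1, 13.4 and 15.2 CPM in heterozygous and 14.9, 13.98 and 16.3 CPM in null ducts. WT spanned the values of both mutant genotypes, at 0.51 ± 0.36 in null ducts (adjusted p = 0.636). In a fit of the 6 libraries low in mesenchyme markers, added after seeing the data, its null value was 1.35 above WT (adjusted p = 0.0127, range over the alternatives 0.0127 to 0.924). The sole WT library there was WT3, the lowest WT embryo for this gene, and it was assumed to vary like the other genotypes. Kcnj4, Kcnj8, Kcnj9, Kcnj13 and Kcnj14 were at 0.0838 to 2.71 CPM and overlapped between WT and null ducts.

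Among the 6 tandem-pore (Kcnk) members, Kcnk1 was at 44.8, 50.8 and 52.6 CPM in WT, 44.2, 45.0 and 48.9 CPM in heterozygous and 44.8, 61.9 and 47.6 CPM in null ducts. The groups overlapped, with null2 the highest (0.05 ± 0.14 for null against WT, edgeR adjusted p = 0.907). Kcnk2, which encodes the mechanically and thermally gated channel TREK1, was at 4.15, 4.59 and 3.90 CPM in WT, 4.10, 4.76 and 4.28 CPM in heterozygous and 5.62, 8.23 and 6.96 CPM in null ducts. Null exceeded all other libraries, by 0.71 ± 0.20 against WT (adjusted p = 0.169), and DESeq2 gave 0.0495 in a range of 0.0495 to 0.458. Kcnk5, the alkaline-activated channel TASK2, was at 9.89, 11.8 and 10.4 CPM in WT, 9.52, 11.9 and 11.2 CPM in heterozygous and 12.0, 14.5 and 16.9 CPM in null ducts. Its null values were again the highest (0.43 ± 0.16, adjusted p = 0.337). Kcnk3 (TASK1) was at 0.445 to 1.76 CPM in WT, 0.763 to 1.21 CPM in heterozygous and 0.388 to 0.629 CPM in null ducts, below the heterozygous range. Kcnk6 was at 1.04 to 4.19 CPM over all libraries, highest in null3, and Kcnk10 at 0.0969 to 0.841 CPM.

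None of the 6 calcium-activated members (Kcnm-n) was called by edgeR, and the lowest adjusted p was that of Kcnn4. Kcnn4, the intermediate-conductance channel, was at 4.08, 3.49 and 4.21 CPM in WT, 5.26, 4.83 and 4.57 CPM in heterozygous and 2.40, 3.10 and 1.59 CPM in null ducts. The genotypes did not overlap, and heterozygous ducts were the highest. Null differed by -0.73 ± 0.27 from WT (edgeR adjusted p = 0.324) and by -1.04 ± 0.26 from heterozygous ducts (adjusted p = 0.177), where DESeq2 gave 0.0187 in a range of 0.0187 to 0.545. Kcnn3, a small-conductance channel, was at 3.70 to 4.24, 3.68 to 4.78 and 1.81 to 3.43 CPM, also lowest in null ducts (-0.56 against WT, adjusted p = 0.458). Kcnn1 was at 6.89 to 10.04 CPM in WT and 10.3 to 11.0 CPM in null ducts. Kcnn2, the SK channel of efferent synapses on hair cells, overlapped at 2.08 to 2.56 and 2.31 to 2.65 CPM. Kcnma1, the pore of the BK channel, was at 0.981 to 1.76 CPM in WT, 1.12 to 1.23 CPM in heterozygous and 1.52 to 2.52 CPM in null ducts (0.60 ± 0.32 against WT, adjusted p = 0.509). Its BK beta subunit Kcnmb4 was at 6.47 to 7.67 CPM in WT and 7.08 to 8.88 CPM in null ducts.

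Among the Kcnq and Kcne genes Kcnq3, a pore subunit of the M-current that dampens excitability, was at 56.3, 55.1 and 62.2 CPM in WT, 68.7, 76.9 and 77.8 CPM in heterozygous and 110, 71.1 and 88.8 CPM in null ducts. All 6 mutant libraries exceeded WT, by 0.36 ± 0.07 in heterozygous (edgeR adjusted p = 0.0631) and 0.63 ± 0.15 in null ducts (adjusted p = 0.107). DESeq2 called it in null ducts (0.0030, range 0.0030 to 0.404), as did edgeR without null2 (0.0290). Kcnq5, another M-current subunit, was at 10.4, 9.96 and 9.19 CPM in WT, 10.6, 8.72 and 9.58 CPM in heterozygous and 4.75, 3.52 and 10.02 CPM in null ducts. Null1 and null2 lay below all other libraries and null3 lay within the WT range, so that the log2 fold change was -0.70 ± 0.36 (adjusted p = 0.488) and -1.26 without null3 (adjusted p = 0.0185, range 0.0185 to 0.824). The subunits of endolymph secretion overlapped between genotypes. Kcnq1 was at 1.41 to 2.19 CPM in WT and 0.908 to 2.26 CPM in null ducts, and Kcne1 at 1.92 to 3.53 and 1.68 to 2.84 CPM. Of the other beta subunits, Kcne1l was at 1.46 to 1.65 CPM in WT and 2.06 to 3.02 CPM in null ducts (0.64 ± 0.25, adjusted p = 0.350), and Kcne3 overlapped at 2.38 to 3.96 and 2.64 to 4.17 CPM. Kcne2 stayed at 0.305 to 0.661 CPM over all libraries.

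Neither the sodium-activated Kcnt1 nor the sperm channel gene Kcnu1 was called. Kcnt1 was at 0.196 to 0.704 CPM in WT and 0.165 to 0.419 CPM in null ducts. Kcnu1 was at 0.704 to 1.14 and 0.838 to 2.85 CPM, with null1 the highest, and both genes overlapped between genotypes.

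Some members stood apart in the 3 libraries rich in mesenchyme markers (WT1, WT2 and null3). Kcna6, Kcnd3 and Kcng1 were higher there than in the other 6 libraries, and Kcnmb4 lower, which is 4.55% and 1.52% of the members against 4.57% and 1.98% of all genes. Kcng1 passed the rule for members through these 3 libraries alone, so its place in this count follows from the rule. Kcna6, a Kv1 subunit, was at 10 to 10.7 CPM in these libraries and at 3.01 to 6.27 CPM in the rest. Among the libraries low in mesenchyme markers its null values (3.01 and 3.91 CPM) were the lowest. Kcng1 held 10, 10 and 12 counts in them and at most 4 elsewhere. For Kcnd3 the difference of heterozygous from WT ducts (-1.10 ± 0.37, edgeR adjusted p = 0.228, called lower by DESeq2 at 0.0338, range 1.0e-04 to 1.00) became 0.11 when those libraries were left out, and null against WT turned from -0.14 to 0.95. Kcnq5 and Kcna6 were described for this pattern after their values were seen. The part of mesenchyme RNA in these differences was not tested beyond that fit.

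**Figure D4:**
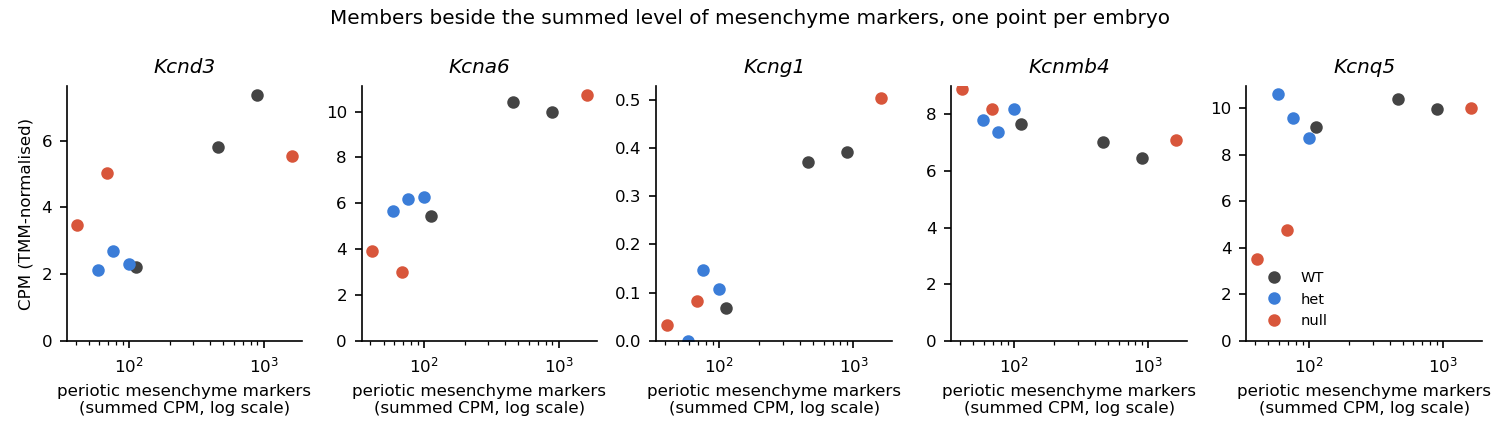
CPM of 5 members (linear y axes from 0) against the summed CPM of 9 periotic mesenchyme markers (log x axis), with a point per embryo coloured by genotype. Kcnd3, Kcna6 and Kcng1 are highest in the 3 embryos at 460 CPM of markers or more, and Kcnq5 is low in null1 and null2 alone.

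Of 13 other genes whose products join potassium channels or carry related currents, 9 were tested in each comparison and edgeR called none. At an unadjusted p under 0.05 there were 0, 1 and 1 of them in null against WT, heterozygous against WT and null against heterozygous ducts, where 12.2%, 13.1% and 11.4% of all genes had such a p. Amigo1, a membrane protein that joins voltage-gated channels, was at 30.8 to 32.8 CPM in WT and 33.9 to 35.1 CPM in null ducts, and Dpp10, a partner of Kv4 channels, at 61.3 to 72.0 and 53.2 to 64.1 CPM. Abcc8 and Abcc9, the sulfonylurea receptors that join Kcnj11 and Kcnj8, overlapped at 7.34 to 9.97 against 7.82 to 13.1 CPM and at 3.87 to 5.53 against 3.07 to 7.31 CPM. Of 7 genes of potassium uptake 6 were tested and none passed both thresholds, with 3, 2 and 2 of them at an unadjusted p under 0.05 in the same comparisons. Slc12a2, the sodium-potassium-chloride cotransporter that loads strial cells, was at 220, 199 and 189 CPM in WT, 152, 144 and 161 CPM in heterozygous and 131, 117 and 159 CPM in null ducts. All mutant values lay below WT, by -0.41 ± 0.06 in heterozygous (edgeR adjusted p = 0.0465, under the fold threshold) and -0.58 ± 0.12 in null ducts (adjusted p = 0.0593). Atp1b1, a sodium pump subunit, was at 242 to 257 CPM in WT and 162 to 203 CPM in null ducts (-0.40 ± 0.10, adjusted p = 0.112). Atp1b3, another subunit of the pump, was at 58.3 to 65.0 CPM in WT and 71.3 to 84.6 CPM in null ducts, higher without overlap (0.29 ± 0.09, adjusted p = 0.242), and of the 6 genes tested 3 had positive and 3 negative values.

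Counts near the edge of the rule were few. Just inside it were Kcng1 and Kcnh3, with a third-highest count of 10, and Kcnd2, Kcnip1 and Kcne2, with 11. Just outside were Kcna7, Kcng2 and Kcnmb2, with 8. Of the 28 genes left out 3 held no count in any library. Kcna10, an inner ear channel of hair cells, was left out at 12 counts in WT3, 13 in null3 and 0 in the other libraries, where hair cell markers summed to 182 CPM in WT3, 229 in null3 and 113 to 149 elsewhere. Kcnt2 held 0 to 9 counts. Exons of some members overlap a gene on the other strand, and the use of strand in counting is not stated. Of the exon bases of Kcnj13, 49.1% lie within exons of the abundant Gigyf2, so its 0.296 to 1.04 CPM is uncertain. The corresponding share is 39.6% in Kcna6, 20.9% in Kcnmb4, 12.2% in Kcnk2 and 8.01% in Kcnk1, with partners at a mean of 1.78 to 96.8 counts, and 2.96% in Kcnq1, whose partner Kcnq1ot1 had a mean count of 2978.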

How the data were processed

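RNA from the cochlear ducts of 9 embryos was measured as TruSeq mRNA libraries sequenced as single reads. Per the submitters' processing notes and the study's methods, reads were trimmed (cutadapt 1.13), aligned to mm10 (STAR) and counted per Ensembl gene (HTSeq 0.6.1p1). The authors deposited raw counts, whole numbers without normalization. The strand setting and annotation release are not given in the sources used here. Symbols, biotypes, positions and exon lengths came from GENCODE M21 on the same build, which held 54165 of 54232 genes. The 37 mitochondrial genes held 0 counts throughout.

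Each pair of genotypes was fitted on its own 6 libraries with edgeR 4.0.16 in R 4.3.3 (TMM, filterByExpr with a minimum count of 10, quasi-likelihood test), with Benjamini-Hochberg adjustment over all genes tested. CPM values were normalised over the 9 libraries. Standard errors were derived from the fold change and the F statistic. The procedure was tested on simulated data. Alternatives were DESeq2 1.42.0, limma-voom (limma 3.58.1), RLE factors, library size alone, other filters, a joint fit of all 9 libraries, a replicate block, no fold threshold and leaving out each library. A fit of the 6 libraries low in mesenchyme genes was added after seeing the data, and its lone WT library was assumed to vary like the other genotypes.

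Members and gene lists were chosen with earlier results of these data known. Genes with full statistics are those called, the 10 uncalled members with the smallest unadjusted p in null against WT ducts, an inner ear list and others with an unadjusted p under 0.05, and per subfamily the members with the highest level per kb are given by level. No pair of libraries within a genotype was a duplicate, with a chi-square per gene of at least 5.70. The labels speak of 3 littermates per genotype without saying how litters were spread over genotypes, so litter and genotype may not be separable, and p-values measure the spread between these embryos. Some members are not reported by name here.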

Additional observations from a re-analysis of the deposited data

Results flagged for a closer look

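Among the 28 Kcn genes that the count rule left out, 3 had a library of a mutant genotype with 10 or more counts and at least double the highest CPM of WT. Kcna7 held 23 counts in null2 and at most 8 in any WT library. Kcnc1 held 10 counts in null1 and at most 5 in WT. Kcne4, a beta subunit, held 47 counts in null3, where mesenchyme and endothelial markers were high, and at most 9 in WT. Each rests on a single library, and no difference between genotypes was tested.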

How the results depend on the processing

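The count of members called higher in null against WT ducts was 1 with edgeR. It was 5 with DESeq2, 0 with limma-voom, 3 without a filter on low counts, 3 with all 9 libraries in one fit and 0 with the replicate block, and 0 to 2 with an embryo left out. The count called lower there was 0, and 0 to 1 with an embryo left out (Kcnq5 without null3). For heterozygous against WT ducts the count higher was 1, and 0 with all 9 libraries in one fit, 0 in the 6 libraries low in mesenchyme genes and 0 to 1 with an embryo left out. The count lower was 0, and 1 with DESeq2, 1 without a filter and 0 to 2 with an embryo left out (Kcna6 and Kcnd3 without WT3). For null against heterozygous ducts the counts were 2 higher and 1 lower with DESeq2, 1 higher without a filter, 1 higher with all 9 libraries and 1 lower (Kcnq5) in the 6 libraries low in mesenchyme genes, with 0 to 1 lower when an embryo was left out. Fewer libraries enter the fits with an embryo left out, and for the other settings the cause was not tested. Shares of all genes called were computed for the main edgeR fit and DESeq2 alone, so counts under other settings stand without a background.

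The sign turned for some fold changes, most of them near 0, but also for Kcnd3 (-1.10) and Kcna6 (-0.51) in heterozygous against WT ducts. For null against WT ducts Kcnd3 was -0.49 to 0.23 with an embryo left out, 0.014 with limma-voom and 0.95 in the 6 libraries low in mesenchyme genes, Kcnj10 was -0.29 to 0.13, Kcnk1 -0.10 to 0.15 and Kcnn2 -0.011 to 0.13 with an embryo left out. For heterozygous against WT ducts Kcna6 was 0.15 and Kcnd3 0.11 in those 6 libraries, and Kcns1 was -0.24 to 0.38 with an embryo left out. For null against heterozygous ducts Kcnj16 was -0.11 to 0.12. Across the settings run for single genes and for the medians over the members, 752 values stayed the same and 3 medians moved. For single genes 14 values turned sign, 21 passed the threshold newly and 13 lost it. For a gene the same meant direction and side of the threshold, and for a median a shift under the spread between replicates.

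Same-numbered embryos did not deviate together (mean correlation -0.0068, range -0.28 to 0.20, against 0.0019 for other numbers), so the numbers were not taken to pair samples. The replicate block gave Kcns1 an adjusted p of 0.142 in null against WT ducts and Kcnj16 one of 0.0129 in heterozygous against WT ducts. With 3 embryos per genotype and counts under 20 for genes such as Kcnd2, depth limits what can be told apart.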
